A study of Mus musculus with 4 samples.

Results

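The Abcc genes encode subfamily C of the ATP-binding cassette (ABC) membrane proteins, and 10 of them were described here among the 24421 genes of the count files. These were Abcc1, Abcc2, Abcc3, Abcc4, Abcc5, Abcc6, Abcc8, Abcc9, Abcc10 and Abcc12. The family was chosen on the Day4 against Undiff values of these same libraries, after most of its genes were seen to be lower in Day4, so every difference of a family gene between the states is given as a description without a test. All 10 had counts and were among the 19891 genes tested, and none was lost to a filter.

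The libraries came from R1, an established line of mouse embryonic stem cells (ESCs) with no altered allele named in the labels. There were 2 libraries of undifferentiated cells (Undiff), which the methods describe as kept in leukaemia inhibitory factor and the labels as embryoid bodies. There were 2 libraries of Day4, embryoid bodies grown for 4 days without that factor and then treated with retinoic acid (RA) for 4 days, at 2 µM in the paper and the design text and at 2 mM in the sample protocol. The replicates were cultures grown and treated separately. By the account in the methods, Undiff and Day4 differ in the factor, in growth as embryoid bodies and in time in culture as well as in RA. These cannot be told apart, since no library of embryoid bodies grown equally long without RA was analysed here.

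Most Abcc proteins use the energy of ATP to carry organic anions out of the cell, often as conjugates with glutathione, glucuronate or sulphate, and several were found as pumps that make tumour cells resistant to drugs, hence the name multidrug resistance-associated proteins. Some members work otherwise: Abcc8 and Abcc9 are the sulphonylurea receptors, which are not pumps but regulatory subunits of ATP-sensitive potassium (K-ATP) channels, and Abcc6 brings about the release of ATP from which extracellular pyrophosphate is made. In stem cells, as in tumours, ABC pumps are known mainly for the export of drugs and dyes.

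The promoters of the member that was most abundant in Undiff (Abcc4), the member with the next lowest log2 fold change (Abcc2), the member that was higher in Day4 (Abcc9) and the member whose states overlapped (Abcc10) are printed so that their base composition can be set beside the counts. They are RefSeq promoter windows on GRCm38.p6, from 250 bases before to 50 bases after the annotated start, 5′ to 3′ on the strand of the gene. Abcc4 lies at chr14:118706170-118706469 on the minus strand, Abcc2 at chr19:43782058-43782357 on the plus strand, Abcc9 at chr6:142702225-142702524 on the minus strand and Abcc10 at chr17:46327974-46328273 on the minus strand. Abcc4 and Abcc10 have 2 windows each in the table, and the one nearer the 5′ end of the gene is shown. Capitals mark matches, on either strand, to AGGTCA (a binding motif of nuclear receptors), TGACNNNGC (the core of the antioxidant response element), GGGCGG (known as the GC box), TATAAA (the core promoter element of that name), CCAAT (bound by NF-Y) or CACGTG (known as the E-box).
Abcc4: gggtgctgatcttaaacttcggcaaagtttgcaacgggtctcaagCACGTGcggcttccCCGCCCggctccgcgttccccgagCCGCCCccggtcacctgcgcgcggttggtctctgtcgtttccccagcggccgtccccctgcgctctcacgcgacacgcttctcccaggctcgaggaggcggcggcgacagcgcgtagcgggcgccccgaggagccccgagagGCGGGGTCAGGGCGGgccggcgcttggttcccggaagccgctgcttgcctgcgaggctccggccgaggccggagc
Abcc2: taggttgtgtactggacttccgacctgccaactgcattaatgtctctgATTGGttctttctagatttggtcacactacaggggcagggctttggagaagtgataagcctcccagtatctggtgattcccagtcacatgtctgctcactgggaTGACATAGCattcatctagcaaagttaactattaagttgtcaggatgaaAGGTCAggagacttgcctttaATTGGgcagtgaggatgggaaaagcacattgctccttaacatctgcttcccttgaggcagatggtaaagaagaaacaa
Abcc9: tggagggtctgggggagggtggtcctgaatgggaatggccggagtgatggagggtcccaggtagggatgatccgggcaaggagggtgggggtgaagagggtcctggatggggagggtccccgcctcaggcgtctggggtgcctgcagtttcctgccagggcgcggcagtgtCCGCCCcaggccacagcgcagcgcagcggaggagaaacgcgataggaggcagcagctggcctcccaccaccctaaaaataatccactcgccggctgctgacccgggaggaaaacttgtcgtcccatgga
Abcc10: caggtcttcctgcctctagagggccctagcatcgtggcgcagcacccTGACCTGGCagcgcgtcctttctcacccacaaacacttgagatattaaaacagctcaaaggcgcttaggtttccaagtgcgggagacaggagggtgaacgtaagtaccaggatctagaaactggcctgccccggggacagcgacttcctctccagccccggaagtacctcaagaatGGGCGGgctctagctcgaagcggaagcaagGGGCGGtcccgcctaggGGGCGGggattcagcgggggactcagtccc

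The Abcc4 promoter was 72.7% G and C and held 41 CpG dinucleotides, and its observed over expected ratio of CpG was 1.04. The Abcc2 promoter was 45.0% G and C with 1 CpG and a ratio of 0.07. Over the 32851 promoters of the table the medians were 52.7% and 0.38, so these printed windows lay on opposite sides of the common composition. Both genes were lower in Day4, and a relation between composition and change was not tested. The printed windows of Abcc9 and Abcc10 lay between them, with ratios of 0.52 and 0.62. This order holds for the printed windows only. The second window of Abcc4 was 47.3% G and C with a ratio of 0.38, and that of Abcc10 was 49.7% with a ratio of 0.05. The table held 6 of the 10 members, and the entries for Abcc1, Abcc3, Abcc6 and Abcc8 are missing from it.

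In the Abcc4 window, GGGCGG matched at 3 places, and TGACNNNGC and CACGTG at 1 place each, where the match to TGACNNNGC runs directly into a GC box. The Abcc2 window held 1 match to AGGTCA, 1 to TGACNNNGC and 2 to CCAAT. A single GC box was found in the Abcc9 window. In the Abcc10 window the matches to AGGTCA and TGACNNNGC share bases, and GGGCGG matched at 3 places. Among all promoters of the table, 16.3% held AGGTCA, 12.4% TGACNNNGC, 35.7% GGGCGG, 13.6% TATAAA, 37.4% CCAAT and 7.2% CACGTG. A match is only a run of letters, and no binding was measured in these libraries.

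Counts are given as normalized counts, which are the deposited counts scaled by TMM to a common library size, with the 4 libraries holding between 32099074 and 47730944 counts on genes. A differentially expressed gene (DEG) had to pass an adjusted p of 0.05 (edgeR's quasi-likelihood test, Benjamini-Hochberg adjustment), to differ by 2-fold or more and to average 5 normalized counts or more. By these thresholds 7 of the 10 members were called lower in Day4, 1 was called higher and 2 were not called, while of all genes tested 42.8% were called, 20.6% as lower and 22.2% as higher. For 8 members the higher Day4 library lay below the lower Undiff library, against 42.7% of all genes, and for 1 member the reverse held, against 42.7%. Since the family was chosen on this contrast, nothing is read from these counts. The median log2 fold change of the members was -1.64, and that of all genes was -0.03. In these whole-culture libraries, fewer cells that express a gene and less RNA per cell cannot be told apart.

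**Figure D1:**
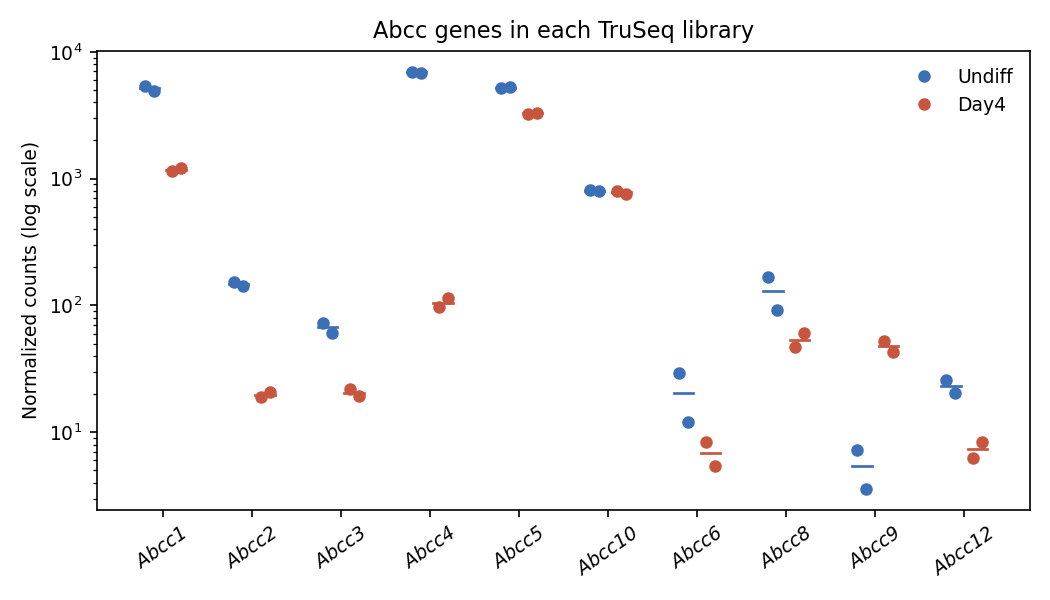
Normalized counts of the 10 Abcc genes on a log axis, in the 2 Undiff and 2 Day4 libraries; points are libraries and lines are means. Abcc4 runs from 6982 and 6833 in Undiff to 97.1 and 114 in Day4, Abcc9 from 7.29 and 3.59 to 52.2 and 43.0, and only the points of Abcc10 overlap between the states.

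Among the pumps, Abcc4 (chr14:118482692-118706219, minus strand, GRCm38), which exports cyclic nucleotides and prostaglandins among other anions, had 6982 and 6833 normalized counts in the Undiff libraries and 97.1 and 114 in the Day4 libraries. It was abundant in both Undiff libraries, the Day4 libraries lay far below, and the states did not overlap. The means were 6908 ± 105 and 105.4 ± 11.7 (SD, n = 2 each). The log2 fold change was -6.02 (SE 0.07), the largest in size of the family. The ratio of the summed, depth-scaled counts was 64.8, with a 95% interval from 57.1 to 74.0 that covers counting error only.

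Abcc1 (chr16:14361558-14475737, plus strand) is the broadly expressed exporter of glutathione conjugates and of leukotriene C4. Its normalized counts were 5381 and 4945 in Undiff and 1142 and 1214 in Day4. The libraries of each state lay close together and the states were well apart. The log2 fold change was -2.13 (SE 0.06).

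Abcc5 (chr16:20331303-20426394, minus strand) exports cyclic nucleotides and other anions. It had 5186 and 5232 normalized counts in Undiff and 3230 and 3318 in Day4. The states did not overlap, but the log2 fold change of -0.67 (SE 0.04) lay under the fold change of 2 that a DEG had to reach. The called member nearest to that threshold was Abcc8, with a log2 fold change of -1.26, and Abcc5 was the nearest outside it.

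Abcc10 (chr17:46303221-46328352, minus strand), a pump of lipophilic drugs, had 811 and 792 normalized counts in Undiff and 794 and 762 in Day4. The higher Day4 library lay between the Undiff libraries, so the states overlapped. The log2 fold change was -0.05 (SE 0.07), which leaves Abcc10 as the family member with nearly equal values in both states. Abcc10 shares 51 exon bases with Dlk2 on the opposite strand. The methods say that gene counting took account of strandedness and name only the Direct RNA samples as strand-specific, so fragments in these bases are uncertain.

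The remaining pumps were scarce. Abcc2 (chr19:43782192-43840740, plus strand), the canalicular exporter of bilirubin conjugates in liver, had 153 and 144 normalized counts in Undiff and 18.8 and 20.7 in Day4. Both Day4 libraries were low without overlap, and the log2 fold change was -2.89 (SE 0.21). Abcc3 (chr11:94343295-94392997, minus strand), which exports bile acids and glucuronides across the basolateral membrane, had 72.9 and 61.0 in Undiff and 21.9 and 19.2 in Day4. The states did not overlap and the log2 fold change was -1.72 (SE 0.26).

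Markers of visceral endoderm and hepatocytes moved in both directions. Of the 8 genes listed, 7 were tested, and 5 of them rose and 2, Amn and Cubn, fell by edgeR's quasi-likelihood test. Among all genes tested, 22.2% rose and 20.6% fell. The values that follow are those of the markers. Their summed level was 1310 and 1538 normalized counts in Undiff and 9954 and 10129 in Day4, with Alb, which encodes serum albumin, at 0 in all 4 libraries. Most of the Day4 sum was Gata4, a transcription factor that is also found in heart, at 9528 and 9714. Without Gata4 the sum turned, from 1155 and 1359 in Undiff to 426 and 415 in Day4. Most of that Undiff sum was Cubn, at 1059 and 1253. Without Cubn the sums of the markers were 251 and 285 in Undiff and 9858 and 10042 in Day4. Their part in the values of Abcc2 and Abcc3 was not tested.

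Abcc6 (chr7:45967555-46030302, minus strand), whose loss causes the ectopic mineralisation of pseudoxanthoma elasticum, was near the limit of counting. Its raw counts were 28 and 10 in Undiff and 8 and 7 in Day4. The corresponding normalized counts were 29.2 and 12.0 against 8.36 and 5.37. The Undiff libraries differed from each other by 2.44-fold, and the lower of them lay only a little above the higher Day4 library. The log2 fold change was -1.65 (SE 0.53), and it was -0.84 without Undiff replicate 1, where the member was no longer called. The call was also lost without Day4 replicate 2, at -1.36.

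Abcc12 (chr8:86482260-86580686, minus strand), a family member with no settled substrate, had 26.1 and 20.3 normalized counts in Undiff and 6.27 and 8.45 in Day4. The Undiff libraries were higher without overlap, and the log2 fold change was -1.62 (SE 0.42). The ratio of its summed counts, Undiff over Day4, was 3.11, with a 95% counting interval from 1.73 to 5.83. That of Abcc6 was 3.19, with an interval from 1.71 to 6.24, so these scarce members could not be ranked against each other.

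**Figure D2:**
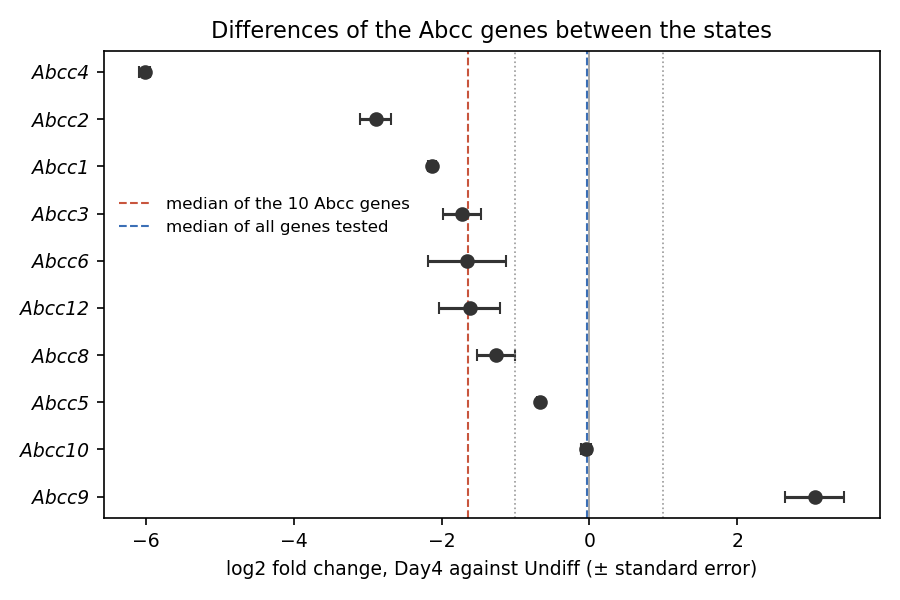
Log2 fold change of each Abcc gene, Day4 against Undiff, with its standard error as bars; dotted lines stand at a fold change of 2 in each direction and dashed lines at the medians of the members and of all genes. The members run from -6.02 for Abcc4 to 3.05 for Abcc9, and the bars are widest for the scarce genes Abcc6, Abcc12 and Abcc9.

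The sulphonylurea receptors differed in opposite directions. Abcc8 (chr7:46104523-46180033, minus strand), the receptor of pancreatic beta cells and neurons, had 167 and 92.1 normalized counts in Undiff and 47.0 and 60.7 in Day4. The Undiff libraries were higher without overlap but differed from each other by 1.81-fold. The log2 fold change was -1.26 (SE 0.26), and it was -0.75 and not called without Undiff replicate 1.

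Abcc9 (chr6:142587862-142702315, minus strand), the receptor of cardiac, skeletal and vascular smooth muscle, had 7.29 and 3.59 normalized counts in Undiff and 52.2 and 43.0 in Day4. The raw counts behind them were 7 and 3 in Undiff and 50 and 56 in Day4, so the member was barely detected in Undiff. The log2 fold change was 3.05 (SE 0.41), and it was 3.66 without Undiff replicate 1 and 2.67 without Undiff replicate 2. The ratio of the summed counts, Day4 over Undiff, was 8.42, with a 95% counting interval from 4.40 to 18.1. An antisense gene, 5330439B14Rik, shares 158 exon bases with Abcc9 and was at 0 counts in every library.

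Each receptor forms a channel with an inwardly rectifying potassium channel pore, and each lies beside a pore gene in the genome. Kcnj8 (Kir6.1), which lies 16247 bp from Abcc9, had 10.4 and 3.59 normalized counts in Undiff and 844 and 800 in Day4. It was close to absent in both Undiff libraries and abundant in both Day4 libraries. It rose by a log2 fold change of 6.80 (SE 0.19), with an adjusted p of 1.3e-12 in edgeR's quasi-likelihood test.

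Kcnj11 (Kir6.2), 3758 bp from Abcc8, had 33.3 and 28.7 normalized counts in Undiff and 37.6 and 46.8 in Day4. Its Day4 libraries were the higher ones by a small margin, and with a log2 fold change of 0.46 (SE 0.27) and an adjusted p of 0.134 in edgeR's quasi-likelihood test it did not pass. Of the neighbouring pairs, Abcc9 and Kcnj8 were thus both higher in both Day4 libraries, while for Abcc8 and Kcnj11 the Day4 libraries lay on opposite sides of the Undiff libraries.

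**Figure D3:**
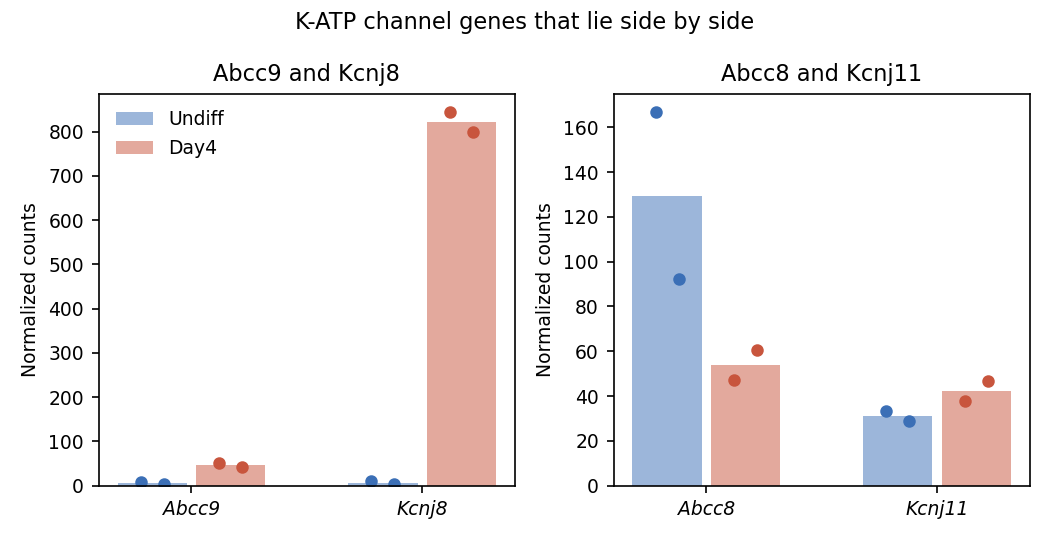
Normalized counts of the K-ATP channel receptors Abcc8 and Abcc9 and the pores Kcnj11 and Kcnj8; bars are means of 2 libraries from 0 and points are libraries. The panels have separate axes, and Kcnj8 stands at 844 and 800 in Day4 against 10.4 and 3.59 in Undiff, while the points of Abcc8 in Undiff, 167 and 92.1, lie far apart.

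Markers of cell types, among them cells that use these receptors, moved as follows, while of all genes 22.2% rose and 20.6% fell. Of 8 mesenchyme and smooth muscle genes, 6 rose, 1 (Hand1) fell and 1 (Myh11) did not pass. Their sum was 2419 and 2168 normalized counts in Undiff and 25756 and 25430 in Day4. Of 6 cardiac muscle genes, 2 rose and 2 fell, and their sum was 971 and 979 in Undiff and 488 and 443 in Day4. Without Myh6, a myosin heavy chain, that sum was 413 and 359 against 477 and 429, the other way round. Without Tnnt2 it was 955 and 970 against 239 and 289. Of 8 neural genes, 2 rose and 4 fell, with sums of 5918 and 5840 against 4510 and 5027. These sums also turned, to 3233 and 3267 against 4310 and 4850, without Tubb3. Without Nes they were 4298 and 4093 against 787 and 826. Of 5 beta cell genes only 2 were tested. Nkx6-1, a transcription factor of beta cells and of ventral neural progenitors, rose from 0 counts in both Undiff libraries to 18 in each Day4 library (adjusted p = 0.000165 in edgeR's test). The defining hormone genes Ins1, Ins2 and Iapp were at 0 in all 4 libraries. All 8 pluripotency genes fell, from 173721 and 175260 to 958 and 768. Of 5 endothelial genes, 3 rose and 2 fell, with sums of 6292 and 6240 against 10077 and 10346. Without Kdr the endothelial sums were 6089 and 5998 against 5784 and 5867, and without Pecam1 they were 1029 and 1102 against 7808 and 8067. The part of these cells in the values of the family was not tested.

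To compare levels between genes, TMM-scaled CPM values were divided by the exon length of each gene in kilobases. On this scale Abcc4 led in Undiff with 28.9 ± 0.439 (SD, n = 2), followed by Abcc5 with 13.0 ± 0.0812, Abcc1 with 9.14 ± 0.546 and Abcc10 with 3.12 ± 0.0514. These neighbours did not overlap. Every other member lay at 0.465 or less. The libraries of Abcc2, Abcc8 and Abcc3 overlapped from each to the next, as did those of Abcc6 and Abcc12, and Abcc9 was lowest with 0.0174.

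In Day4 the order of the levels was different. Abcc5 led with 8.19 ± 0.156, followed by Abcc10 with 3.03 ± 0.0868 and Abcc1 with 2.08 ± 0.0902. Abcc4 came next with 0.441 ± 0.0487. Abcc8 with 0.178 ± 0.0319 and Abcc9 with 0.152 ± 0.0208 overlapped, and Abcc3, Abcc2, Abcc6 and Abcc12 lay at 0.0964 or less, the last pair overlapping. Among 19078 genes with a length, Abcc4 exceeded 90.1% in Undiff and 35.8% in Day4, and Abcc5 exceeded 79.3% and 69.7%.

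The summed level of the family was 56.5 and 54.7 per kilobase in Undiff and 14.1 and 14.4 in Day4. Abcc4 made up 51.7% and 52.2% of it in the Undiff libraries and 2.87% and 3.29% in the Day4 libraries. Abcc5 made up 23.0% and 23.9% in Undiff and 57.1% and 57.5% in Day4. Abcc10, with nearly equal levels in both states, went from 5.59% and 5.64% of the sum to 21.9% and 20.6%. When the longest transcript was used as the length, Abcc1 stood above Abcc10 in Day4, and the share of Abcc4 in Undiff was 39.2%.

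**Figure D4:**
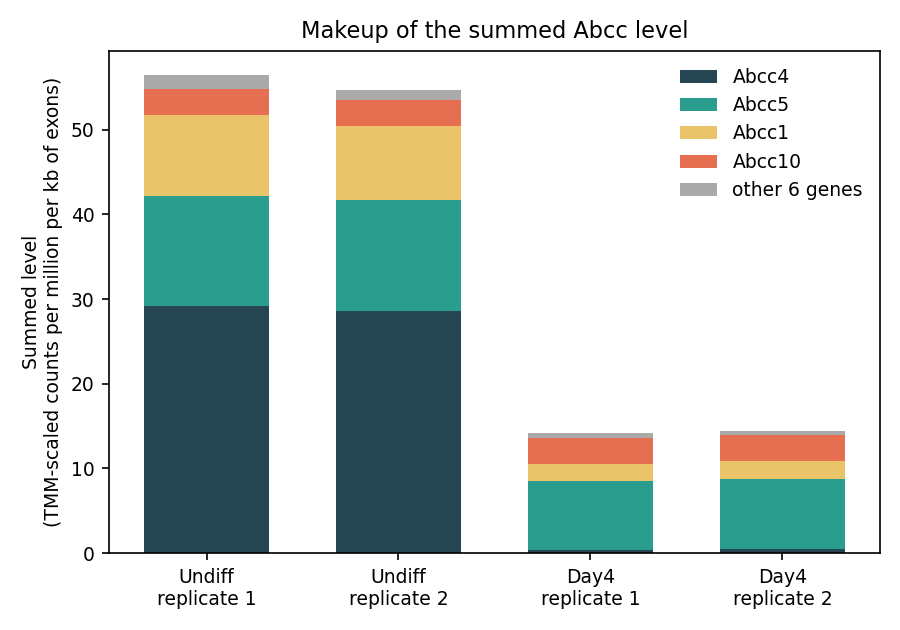
Summed Abcc level (TMM-scaled CPM per kilobase of exon) in each of the 4 libraries, as stacked bars. Abcc4, Abcc5, Abcc1 and Abcc10 are shown singly and the other members together. Abcc4 holds 51.7% and 52.2% of the sum in Undiff and 2.87% and 3.29% in Day4, where Abcc5 holds 57.1% and 57.5%.

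The other ABC transporter genes, which the rule did not use, gave 7 that rose, 12 that fell and 22 that did not pass among 41 tested, that is 17.1% higher and 29.3% lower, beside 22.2% and 20.6% of all genes. Their median log2 fold change was -0.10, and it was 0 when the 7 genes at the floor of 3 counts in a state were set to their bounds. Sizes of single genes in these lists are on the log2 scale. In the ABCA subfamily of lipid transporters 3 of 16 rose and 1 fell. Abca1, the exporter of cholesterol to lipoproteins, rose by 2.81 (SE 0.07, adjusted p = 3.31e-13 in edgeR's test), and Abca3, a transporter of surfactant lipids, rose by 2.14 (SE 0.07, adjusted p = 4.04e-12 in edgeR's test).

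In the ABCB subfamily 1 of 11 rose and 5 fell, with a median of -1.24. Among them were the drug efflux pumps Abcb1a and Abcb1b, at -3.30 (SE 0.10) and -3.48 (SE 0.09), paralogues for which fragments that align to both were not counted. Among the 14 genes of ABCD to ABCG, 3 rose and 6 fell. Abcd2, a peroxisomal transporter of fatty acyl-CoA, rose by 3.95 (SE 0.16), and Abcg4, a sterol transporter, by 2.58 (SE 0.30). Abcg1, an exporter of cholesterol, had a log2 fold change of -3.03 (SE 0.12) and Abcd4, which takes part in the lysosomal export of cobalamin, one of -1.70 (SE 0.07), and both fell. The adjusted p of these 4 genes in edgeR's test was at most 2.79e-06. Cftr, the chloride channel that belongs to the same subfamily as the Abcc genes, had 46.9 and 39.5 normalized counts in Undiff and 59.5 and 67.6 in Day4, a log2 fold change of 0.56 (SE 0.22, adjusted p = 0.0345 in edgeR's test) that did not reach the fold change of a DEG.

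**Figure D5:**
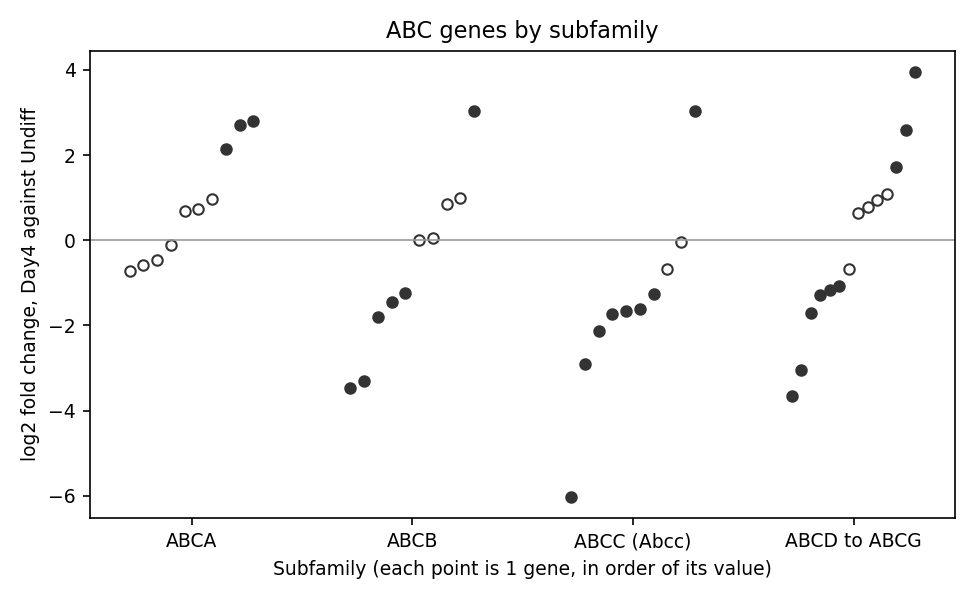
Log2 fold change, Day4 against Undiff, of the ABC genes by subfamily; each point is 1 gene, filled where it is a DEG and open where it is not. Of the 41 genes outside the Abcc family, the 34 that were above 3 counts in some library of each state are shown, and Abcc4 at -6.02 is the lowest point of the plot.

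Genes that supply or modify the substrates of the pumps were given by lists, to be set beside the 22.2% of all genes that rose and the 20.6% that fell. Of 12 genes of glutathione synthesis and recycling none rose as a DEG and 7 fell, with a median log2 fold change of -1.01. Ggt1, the cell-surface enzyme that breaks down extracellular glutathione, fell by 5.15 on the log2 scale (SE 0.18, adjusted p = 1.39e-11 in edgeR's test). Chac1, which degrades glutathione inside the cell, fell by 3.77 (SE 0.12, adjusted p = 4.36e-12 in edgeR's test). Of the 22 glutathione S-transferase genes tested, 3 rose and 7 fell, with a median of 0.17. Mgst1, a membrane-bound transferase, rose by 3.63 (SE 0.09) and Gstm7 by 1.15 (SE 0.11). Gstp2 and Gstm6, members of gene clusters for which fragments that align to more than 1 gene were not counted, had log2 fold changes of -7.28 (SE 0.22) and -4.17 (SE 0.23).

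Of 4 genes of leukotriene synthesis, which makes a substrate of Abcc1, 3 fell and none rose. Alox5ap, the protein that presents arachidonate to 5-lipoxygenase, had 252 and 219 normalized counts in Undiff and 36.6 and 24.6 in Day4. The states were far apart, and it fell by 2.99 on the log2 scale (SE 0.19, adjusted p = 6.07e-09 in edgeR's test). Of 13 organic anion uptake genes tested, 1 rose and 4 fell. Slco4c1 fell by 6.14 (SE 0.28). Slc22a7, an organic anion transporter of liver and kidney, had 482 and 442 normalized counts in Undiff. It stood at the floor in Day4, with 3 raw counts in each library, and fell (adjusted p = 3.84e-12 in edgeR's test). The ratio of its means, Undiff over Day4, was 169.9 and rests on those few Day4 counts.

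Genes around extracellular ATP and pyrophosphate, the pathway of Abcc6, gave 1 that rose and 4 that fell among 6. Enpp1, which makes pyrophosphate from ATP, had 112 and 95.7 normalized counts in Undiff and 775 and 812 in Day4, and rose by 2.93 (SE 0.10). Alpl, the phosphatase that breaks pyrophosphate down and is also abundant in ESCs, had 4556 and 4456 in Undiff and 367 and 366 in Day4, and fell by 3.62 (SE 0.06). Enpp3, a related enzyme of nucleotide breakdown, fell by 4.78 (SE 0.07). The adjusted p of these 3 genes in edgeR's test was at most 1.28e-11. Enpp1 and Alpl thus differed in opposite directions in RNA. Enpp3 went the way of Alpl, with means of 7352 normalized counts in Undiff and 270 in Day4.

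Among 12 regulators of xenobiotic and stress responses 3 rose and 1 fell, with a median of -0.15. Rxra, a retinoid receptor and the shared partner of several nuclear receptors, rose by 3.24 (SE 0.06, adjusted p = 2.05e-14 in edgeR's test). Keap1, the inhibitor of the antioxidant factor Nrf2, rose by 2.01 (SE 0.06, adjusted p = 3.1e-12 in edgeR's test). None of 6 membrane scaffold genes, which anchor transporters at the cell surface, passed the DEG thresholds, and their median was -0.05. Over all 119 genes tested in the lists outside the family, 16 rose and 38 fell, beside 22.2% and 20.6% of all genes. The lists were chosen with earlier results of these data known, so nothing is read from these counts.

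The nearest protein-coding genes on the sides of the members gave 20 neighbours, of which 19 were tested. Of these, 3 rose, 3 fell and 13 were not DEGs, while of all genes 22.2% rose and 20.6% fell. Beside Abcc4, Cldn10 had a log2 fold change of -0.75 (adjusted p = 0.155 in edgeR's test) and Gm9376 was at 0 counts, so neither neighbour passed. Beside Abcc1, Fopnl was at 0.78 and A630010A05Rik was at the floor in both states, and beside Abcc2, Dnmbp was at 0.71 and Cutc at 0.39, none of them a DEG. Beside Abcc3, Cacna1g, a calcium channel, rose by 2.30, and Ankrd40 was at 0.68. Beside Abcc6, Nomo1 and Ccdc114 fell by 1.60 and 1.53, and beside Abcc8, Ush1c fell by 3.16. Beside Abcc12, Phkb rose by 1.07 and Lonp2 was at 0.89. The neighbours of Abcc5 and Abcc10, which were not DEGs themselves, were also not DEGs, with Cyp2ab1 at the floor in Day4, Eif2b5 at -0.73, Zfp318 at -0.31 and Tjap1 at -0.34, and Cmas beside Abcc9 was at 0.01.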

How the data were processed

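RNA of R1 ESCs was sequenced as 2 Undiff and 2 Day4 TruSeq libraries. Per the labels and the methods, the authors removed adapters (cutadapt), aligned to mm10 (STAR 2.4.2a) and counted unique alignments per gene (htseq-count). The deposited values are raw counts per gene symbol. Summary lines, which name no gene, were left out of library sizes. Fragments on no gene came to 12.09% and 13.25% of the file total in Undiff and to 7.497% and 7.745% in Day4. This share thus differed between the states. Ambiguous fragments came to between 1.84% and 1.91%. The methods say that strandedness was taken into account in gene counting and name only Direct RNA as strand-specific, which leaves the TruSeq option unnamed, and the labels name a ribosomal depletion kit besides TruSeq. Genes with near-identical copies lose fragments that align to more than 1 place.

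All 19891 genes with a count were fitted together with edgeR 4.0.16 (TMM, glmQLFit, glmQLFTest) in R 4.3.3, after a test on simulated data, with Benjamini-Hochberg adjustment over all of them. The SE is the log2 fold change divided by the square root of F. The fold changes, SEs and calls of the members came from that fit and serve as description. An exact permutation test of 2 against 2 libraries cannot give a p below 0.333. A gene was at the floor in a state where no library exceeded 3 counts, and intervals cover counting error only. Between libraries of a state the counts differed by more than sampling noise (chi-square per degree of freedom 5.71 in Undiff and 3.07 in Day4), so none was a repeated deposit. Positions and lengths are those of GENCODE vM21 on GRCm38, matched by symbol.

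The members and lists were chosen with earlier results of these data known. The text names all members, Kcnj8, Kcnj11, Cftr, the flanking genes and, per list, up to 2 highest and 2 lowest DEGs that averaged 50 normalized counts or more. A gene that this rule takes is not reported here. Alternatives were DESeq2 1.42.0 with and without shrinkage, other scalings, a filter on low counts, no minimum fold change, a replicate block, other gene lengths, each library left out and, chosen after seeing the data, the older quasi-likelihood fit of edgeR.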

Additional observations from a re-analysis of the deposited data

How the results depend on the processing

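No called value changed direction. Without a minimum fold change, the DEGs numbered 14309 in place of 8521 (7004 lower and 7305 higher), 89 in place of 54 in the lists outside the family (37 in place of 16 higher) and 14 in place of 6 among the flanking genes. With the longest transcript as the length, Abcc4 held 39.2% of the family sum in Undiff in place of 52.0%, and Abcc5 60.6% in Day4 in place of 57.3%. With 1 library left out at a time, the median log2 fold change of the members lay between -1.81 and -1.13, the latter without Undiff replicate 1, and between 5 and 7 members were lower. Abcc6 was not called with either DESeq2 setting, without Undiff replicate 1 or without Day4 replicate 2, its log2 fold change running from -2.12 to -0.84. Abcc8 ran from -1.60 to -0.75 and lost its call without Undiff replicate 1, and the cause was not tested. Without a minimum fold change Abcc5 was also called, making 8 members lower in place of 7. In the 12 other settings the remaining members kept their calls.

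With the replicate number as a block, the members had the same calls, and Abcc4 had a log2 fold change of -6.02 and Abcc6 one of -1.54. The numbers are shared between the states, but same-numbered libraries did not deviate together (correlation -0.00497 over 13318 genes, with 2 pairs), so they were not taken as pairs. Depth limits most the values of Abcc6 (between 7 and 28 raw counts in a library), Abcc12 (between 6 and 25) and Abcc9 in Undiff (3 and 7).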
